A study of Arabidopsis thaliana with 12 samples.

Results

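TCP15 (AT1G69690), a transcription factor gene of Arabidopsis thaliana, was followed in cytokinin-treated and water-treated cell culture. It was found through the platform annotation, as the feature that carries TCP15 as its only gene name: 1 feature of 3439 on the array and 1 of the 692 features with exactly 1 gene name. No other feature lists TCP15 among several names. The gene was chosen by its measured values: in an earlier look at these same arrays its level differed between the treatments. The difference between cytokinin and water is therefore given as a description, in groups and in pairs, and carries no test.

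Both groups are total RNA of wild-type Columbia-0 cell culture, the first given cytokinin for 2 h and the second given water. Each has 6 arrays, numbered 1 to 6. The labels name neither the cytokinin nor its dose, call the control water-treated in one place and untreated in another, and do not say whether the numbers are separate cultures, so the spread shown here may be technical. A cell culture has no defining marker set. Of 20 green leaf genes looked for, 2 (LHB1B2 and PSAN) were the only gene of a feature, and none of 4 seed genes or 7 cytokinin response genes was. LHB1B2, a light-harvesting protein, had normalized intensities of 0.727 to 0.905 with cytokinin and 0.447 to 0.593 with water. Its log2 difference was 0.68 (limma adjusted p = 0.00144 without and 0.000891 with a replicate block). These fits take arrays, or pairs of arrays, as independent, which the labels do not show. PSAN, a photosystem I subunit, ran from 1.43 to 2.1 with cytokinin and from 1.05 to 2.02 with water (log2 difference 0.27, limma adjusted p = 0.792 without and 0.0275 with a replicate block). Their part in the TCP15 difference was not tested. The hormone response could not be checked on the 7 response genes.

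TCP proteins are plant transcription factors with a basic helix-loop-helix-like domain, named after TEOSINTE BRANCHED1, CYCLOIDEA and the PCF proteins. TCP15 belongs to class I, acts partly redundantly with TCP14, and is known for roles in cell proliferation, endoreduplication and organ growth. Cytokinins promote division of cultured plant cells, and their signal passes from membrane histidine kinases through phosphotransfer proteins to response regulators. TCP14 and TCP15 have been linked to cytokinin responses of leaves and flowers together with SPINDLY, an O-fucosyltransferase of nuclear and cytosolic proteins.

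The TCP15 feature was less bright on the cytokinin arrays. As deposited, in the authors' intensity units, it read 0.451, 0.436, 0.500, 0.528, 0.486 and 0.568 on cytokinin arrays 1 to 6. On water arrays 1 to 6 it read 0.619, 0.621, 0.647, 0.752, 0.661 and 0.677. Every cytokinin array lay below every water array, as for 1.64% of features on this scale, with the highest cytokinin value (array 6) and the lowest water value (array 1) 0.0518 apart. The means were 0.495 ± 0.0488 with cytokinin and 0.663 ± 0.0492 with water (SD, n = 6 each), so the distance between the means exceeded the SD of either group. In bulk RNA such a difference can come from fewer cells that express the gene or from less of its RNA per cell, and these cannot be told apart.

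Part of that distance went with a shift of the arrays as a whole. The median intensity over all features was 0.674 to 0.693 on cytokinin arrays and 0.724 to 0.744 on water arrays. The 200 features closest to TCP15 in brightness had a median log2 difference, cytokinin minus water, of -0.103 as deposited and -0.006 after quantile normalization, which gives all arrays the same distribution. Normalized, TCP15 read 0.472, 0.459, 0.518, 0.538, 0.512 and 0.590 on cytokinin arrays 1 to 6, and 0.595, 0.600, 0.634, 0.736, 0.645 and 0.646 on water arrays 1 to 6. The groups still did not overlap (0.679% of features tested lay apart in this direction), but cytokinin array 6 now lay 0.00433 under water array 1. The normalized means were 0.515 ± 0.0474 with cytokinin and 0.642 ± 0.0509 with water (SD, n = 6 each). On the log2 scale the difference was -0.32 after normalization and -0.42 as deposited, and the normalized value corresponds to a level 19.9% lower with cytokinin.

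**Figure D1:**
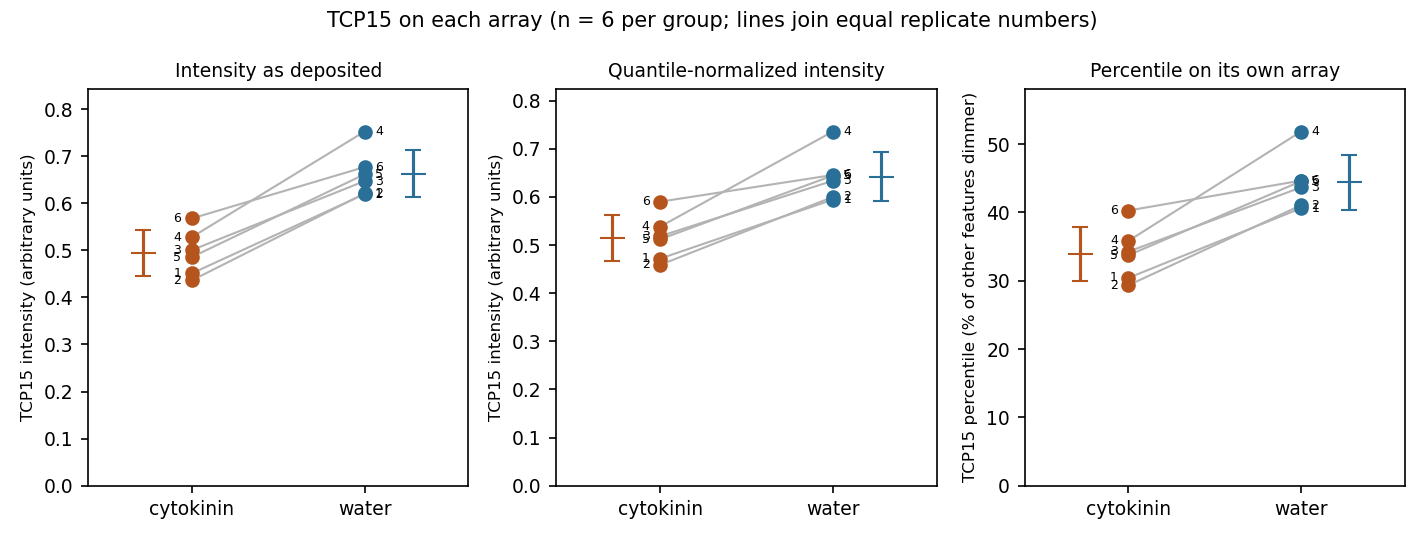
TCP15 on each of 12 arrays, cytokinin left and water right: intensity as deposited, quantile-normalized intensity (both in arbitrary units) and percentile among the features of the same array. Points are arrays with their replicate numbers, lines join equal numbers, and the bars beside them are the mean ± SD (n = 6). All cytokinin points lie under all water points on the 2 intensity scales and in percentile (29.3 to 40.3 against 40.6 to 51.8), and water array 4 is the highest. The percentiles restate the normalized intensities, which are set by rank on the array.

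Quantile normalization sets each value by its rank on its array, so the percentiles given here restate the normalized values. The place of TCP15 within each array does not depend on how arrays are scaled against each other. Its feature was brighter than 30.4, 29.3, 34.2, 35.8, 33.7 and 40.3% of the other features on cytokinin arrays 1 to 6, and than 40.6, 41.0, 43.7, 51.8, 44.6 and 44.6% on water arrays 1 to 6. Between 2054 and 2430 features were brighter on the cytokinin arrays and between 1656 and 2042 on the water arrays. TCP15 therefore sat in the dimmer part of the distribution in both groups, reaching the middle only on water array 4. Relative to the median of its own array it stood at 0.720 ± 0.0718 with cytokinin and 0.901 ± 0.0716 with water (SD, n = 6 each). It was above the floor of 0.258 applied to dim values on all 12 arrays, at 1.78 times the floor where it was dimmest.

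Same-numbered arrays were also compared, because their deviations from the group means correlated at 0.70 to 0.84 across all features, which are not independent replicates. The normalized ratio of TCP15, cytokinin over water, was 0.794, 0.765, 0.818, 0.731, 0.794 and 0.914 in numbers 1 to 6. All 6 ratios were below 1, as for 8.06% of the features tested (21.6% as deposited); number 4 gave the widest distance and number 6 the narrowest. On the log2 scale they averaged -0.32 ± 0.11 (SD, n = 6 pairs) and ran from -0.45 to -0.13. As deposited they averaged -0.42 ± 0.098 and ran from -0.51 to -0.25. TCP15's own deviations from the group mean had the same sign in both arrays of 4 of the 6 numbers. The most uneven numbers were 4, with log2 deviations of 0.07 in the cytokinin array and 0.20 in the water array, and 6, with 0.20 and 0.01.

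Arrays numbered 1 and 2, 3 and 4, and 5 and 6 deviated together in earlier work on these data, so a group may hold fewer than 6 independent samples. Averaged over such a set, the normalized log2 ratio of TCP15 was -0.36 in numbers 1 and 2, -0.37 in numbers 3 and 4 and -0.23 in numbers 5 and 6. All 3 sets lay below 0, and numbers 5 and 6 were closest to it through number 6.

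**Figure D2:**
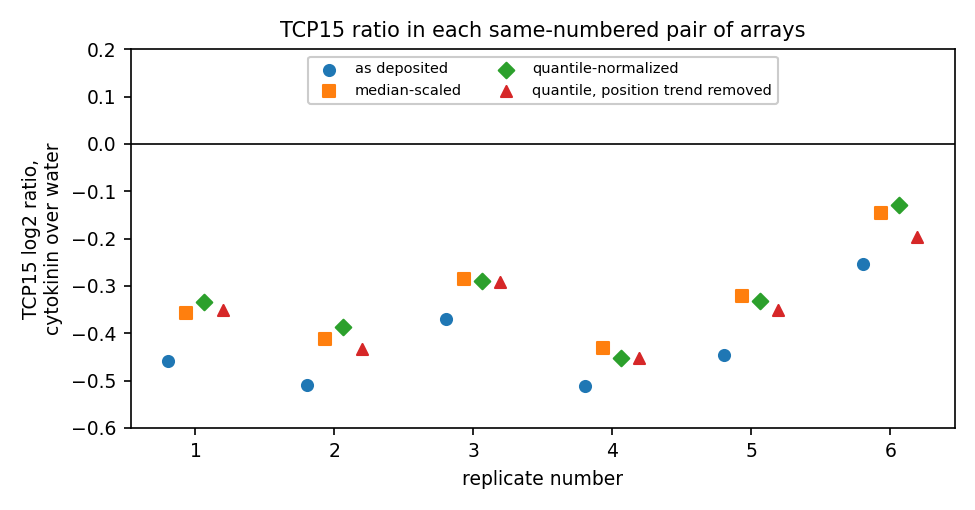
Log2 ratio of TCP15, cytokinin over water, in each same-numbered pair of arrays, on the values as deposited, after median scaling, after quantile normalization and with a trend along feature numbers removed as well. All 24 points lie under 0; number 6 is nearest to it on every scale (-0.25 as deposited, -0.13 normalized), and the deposited values lie lowest in each pair.

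The values of TCP15 were also set beside those of the other features. Of 3091 features above the floor on at least 1 array, 37 (1.2%) had a lower log2 value than TCP15, and 2.52% had a value at least as far from 0 in either direction. Among the 613 of these with exactly 1 gene name, 6 lay lower. The SD of TCP15 within groups was 0.12 on the log2 scale, against a median of 0.17 over the 200 features nearest in brightness, of which 27.5% had a smaller SD. The SD of its pair ratios was 0.11 against their median of 0.13. Of those 200 features, 2 had a log2 value at or below that of TCP15. TCP15 was chosen for this contrast, so nothing is read from its place among them.

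**Figure D3:**
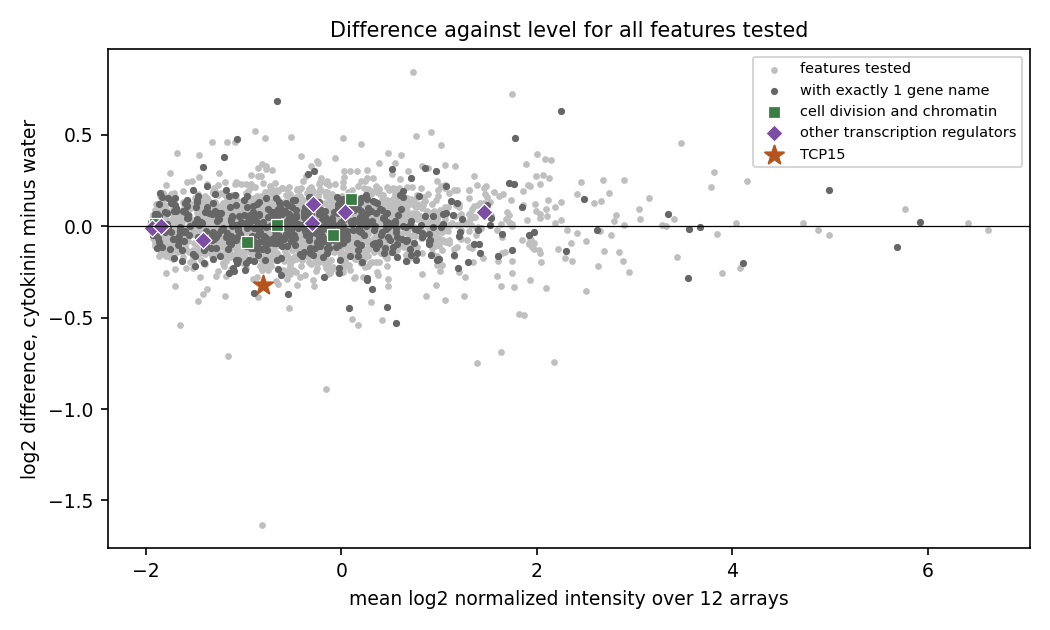
Log2 difference, cytokinin minus water, against mean log2 normalized intensity over 12 arrays for the 3091 features tested. Grey points are features, darker ones have exactly 1 gene name, and the star is TCP15 at -0.32. Squares are a short list of genes of cell division and chromatin, and diamonds one of other transcription regulators. The genes of both lists lie between -0.09 and 0.15.

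The features next to TCP15 in feature number lay closer to 0. Of the 20 nearest, 17 were tested. Their log2 values ran from -0.16 to 0.09 with a median of -0.01, 9 were below 0, and none passed the test across all features (limma, adjusted p under 0.05), which called 1.55% of the features tested. One of them is AT4G03090, the homeobox gene NDX, at -0.08. The sources do not say how feature numbers relate to spots. With a running median along the numbers removed, TCP15 had a log2 value of -0.35.

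Of the other genes through which TCP15 is usually discussed, none found by name was the only gene of a feature. Of the 3439 features on the array, 1877 have no gene name and 870 have several. Whether an unnamed feature measures any of these genes is not known. Of 22 genes matched as TCP family in the RefSeq names, TCP15 alone was the only gene of a feature, and no feature named the others. The match was on symbols and synonyms. Family members listed by locus tag alone would be missed, so their absence from the array is not shown. None of the 100 genes matched to cytokinin synthesis, breakdown, perception and response was the only gene of a feature, nor was any of the 27 genes whose symbol or synonym matched a partner or published target, among them TCP14, SPINDLY, the DELLA proteins, RBR1 and PCNA1. Of 175 genes matched to the cell cycle and DNA replication, 2 occurred on features with several gene names and none alone. The difference of TCP15 could thus not be set beside features named for its paralogue, its partners or the type-A response regulators.

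Other regulators of transcription were looked at in a short list of 8 genes with a feature of their own. It was put together from the names measured and may leave out others. Of these 8 genes 7 were tested, and 0 rose and 0 fell (limma, adjusted p of 0.851 or more). Of all features tested, 1.55% were called. With the replicate number as a block, again 0 of the 7 passed (lowest adjusted p = 0.0687, limma), against 11.7% of all features. Their median log2 difference was 0.015, next to 0.003 over all features tested, and 2 were below 0. Of the 7, SPOROCYTELESS (SPL), which starts sporocyte formation, had the value farthest from 0 (log2 difference 0.12, SE 0.09). Its normalized intensity was 0.854 ± 0.0887 with cytokinin and 0.786 ± 0.0953 with water (SD, n = 6 each). SPL was higher with cytokinin in all 6 pairs, as were 10.1% of the features tested. The bHLH gene AT4G00870 was the brightest of the 7, at 2.84 ± 0.27 with cytokinin and 2.69 ± 0.332 with water (SD, n = 6 each). Its log2 difference was 0.08. NDX, which represses antisense transcription at the flowering gene FLC, read 0.366 ± 0.0354 with cytokinin and 0.387 ± 0.0356 with water (SD, n = 6 each).

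The MADS-box genes AGL103 and AGL54 had log2 differences of 0.015 and 0.003, and AGL26 one of 0.08. LAS, a GRAS-family gene of axillary meristem formation, was above the floor on 3 of 12 arrays and AGL54 on 5, so differences of these genes would show as too small. IAA31, an auxin-response repressor, was listed at 0 on every array.

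A second short list held 6 genes of cell division and chromatin, also put together from the names measured, and may leave out others. Of these 6 genes 5 were tested. Of the 5, 0 rose and 0 fell (limma, adjusted p of 0.591 or more), against the 1.55% called of all features. With the replicate block 0 of the 5 passed (lowest adjusted p = 0.0855, limma), against 11.7%. Their median log2 difference was 0.007, and 2 were below 0. The histone H3.1 gene AT1G09200, which supplies the histone laid down in S phase, read 1.13 ± 0.104 with cytokinin and 1.02 ± 0.0801 with water (SD, n = 6 each; log2 difference 0.149, SE 0.075). The other H3.1 feature, AT5G65360, was listed at 0 on all 12 arrays. H3.1 genes are near-identical in sequence, and whether either feature separates them is not known here.

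TRM31, of a family that recruits the TON1 cytoskeleton protein, read 0.500 ± 0.0554 with cytokinin and 0.531 ± 0.0576 with water (SD, n = 6 each), a log2 difference of -0.09. AT4G14330, a kinesin of the phragmoplast that builds the new cell wall in division, had a log2 difference of -0.05. FBL17, an F-box protein that removes inhibitors of cyclin-dependent kinases, had one of 0.007, and AT1G78790 (MHF2), a cofactor of DNA repair and centromere proteins, one of 0.011 with 7 of 12 arrays above the floor. Whether any of these 4 differences differs from the -0.32 of TCP15 was not tested.

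The genes whose log2 values ran most like those of TCP15 were found by Pearson correlation over the 12 arrays, among the 612 other tested features with exactly 1 gene name. These correlations are descriptions. The 12 points share replicate numbers and sets of numbers, and TCP15 was chosen for its group difference, which favours genes that differ between the groups. Over all 612 genes the median correlation was 0.01, with 5th and 95th percentiles of -0.55 and 0.57.

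AT1G67930, a gene of a Golgi transport complex subunit, ran closest to TCP15 (r = 0.90). Its normalized intensity was 0.604 ± 0.0754 with cytokinin and 0.780 ± 0.0793 with water (SD, n = 6 each), and its groups overlapped, with cytokinin arrays reaching 0.686 and water arrays going down to 0.667. Z-ISO, the 15-cis-zeta-carotene isomerase of carotenoid synthesis, followed (r = 0.85), at 0.803 ± 0.062 with cytokinin and 0.970 ± 0.0549 with water (SD, n = 6 each). The groups of Z-ISO did not overlap. AT2G19280 (r = 0.82) and AT4G20690 (r = 0.81) came next, with log2 differences of -0.10 and -0.29 and overlapping groups. AT5G63390 (r = 0.79) and LPA19, a photosystem II assembly factor of the Psb27 family (r = 0.78), completed the 6, with log2 differences of -0.34 and -0.23 and groups apart. All 6 were lower with cytokinin, as the choice by likeness to TCP15 favours.

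The most opposite genes were higher with cytokinin. AT4G29890, annotated as choline monooxygenase-like, had the lowest correlation with TCP15 (r = -0.91), at 4.07 ± 0.251 with cytokinin and 2.91 ± 0.178 with water (SD, n = 6 each). AT3G57630, of the exostosin-type glycosyltransferases, had r = -0.88 and a log2 difference of 0.20, with overlapping groups. CSLA01, a cellulose synthase-like enzyme of mannan synthesis (r = -0.85), and FZL, a dynamin-like protein of thylakoid organization (r = -0.81), had log2 differences of 0.38 and 0.32 and groups apart.

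**Figure D4:**
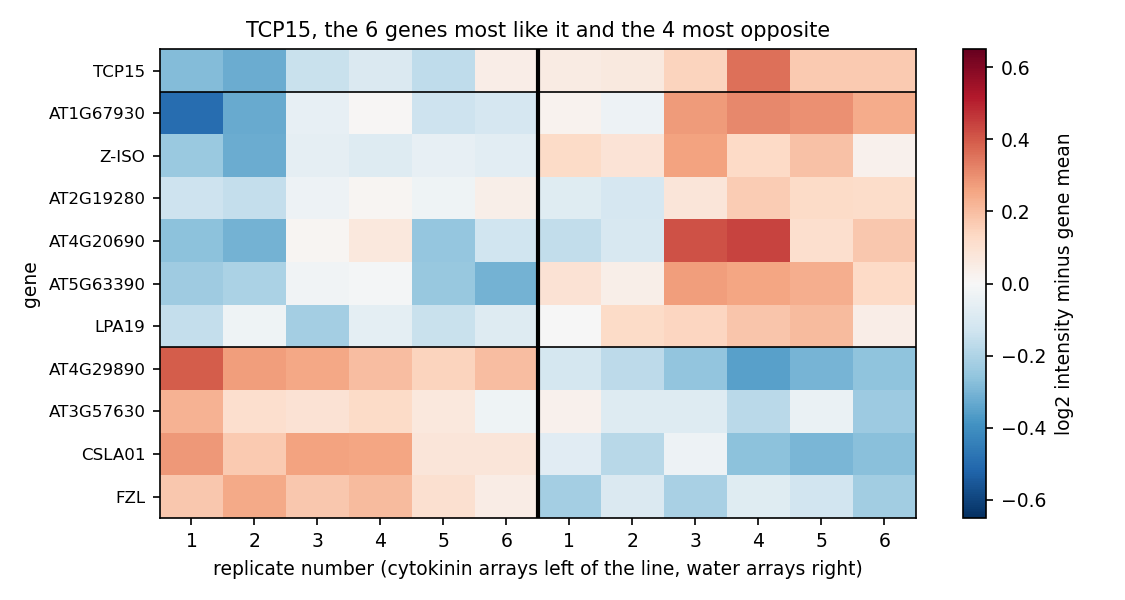
Log2 normalized intensity minus the gene's mean over 12 arrays (colour) for TCP15, the 6 genes most like it and the 4 most opposite (rows); columns are arrays, cytokinin 1 to 6 left of the line and water 1 to 6 right. The top 7 rows are mostly blue with cytokinin and red with water, the bottom 4 the reverse, and TCP15 is reddest on water array 4.

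With the group difference taken out, other genes led. Correlated on deviations from the group means, TCP15 ran most like AT3G27550 (r = 0.87), AT2G19280 (r = 0.86) and AT5G42680 (r = 0.85). Of these AT2G19280 alone is among the 6 above. AT3G27550 read 1.63 ± 0.114 with cytokinin and 1.63 ± 0.188 with water (SD, n = 6 each), and AT5G42680 had a log2 difference of 0.06. AT1G67930 kept a correlation of 0.75 on this measure, while AT5G63390 and LPA19 had 0.27 and 0.26. The 5th and 95th percentiles over the 612 genes were -0.65 and 0.67 here.

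The TCP15 difference stayed below 0 in each of the 30 other ways of processing the values that were run. It ran from -0.42 on the values as deposited to -0.12 on log2(value + 1), a scale that compresses features as dim as this one. Without numbers 1 and 2 it was -0.30, without 3 and 4 it was -0.30, and without 5 and 6 it was -0.37. These settings reuse the same arrays, on which the gene was chosen.

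**Figure D5:**
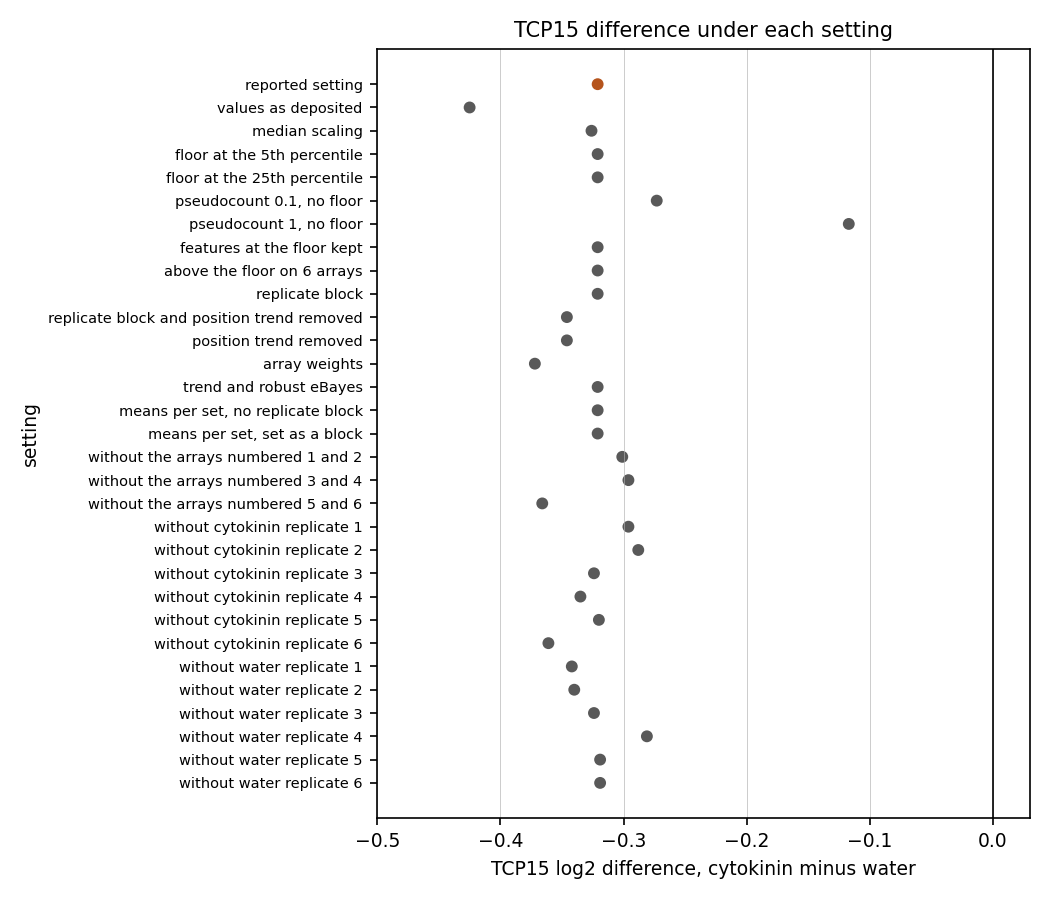
Log2 difference of TCP15, cytokinin minus water, at the reported setting (orange, -0.32) and under 30 others (grey). All points lie under 0; log2(value + 1) gives the value nearest to 0 (-0.12) and the values as deposited the farthest (-0.42).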

How the data were processed

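The table holds linear hybridization intensities, deposited by the authors for 3439 features on 12 arrays; the sources used here give no scaling steps. Array totals ran from 3743 to 3875, and precision is limited by the number of arrays. Features were named from the platform annotation, with symbols brought up to date in RefSeq (TAIR10.1), which held 690 of 692 names; with no build named, coordinates are left out. After quantile normalization, values under the 10th percentile of all positive ones (0.258) were set to it, and log2 was taken. This leaves out 348 features that never exceeded it. Cytokinin and water were compared across 3091 features with limma 3.58.1 in R 4.3.3 (two-sided, Benjamini-Hochberg, threshold 0.05). The same steps were run on simulated data with independent noise on each array. That run does not show how the test behaves on arrays that deviate together, as same-numbered arrays do here. Arrays left out were dropped after normalization. Same-numbered arrays were taken as pairs because their deviations correlated at 0.70 or more for every number; the labels state no pairing.

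TCP15, the gene lists and the sets of numbers were chosen with earlier results of these data known. Named are TCP15, the 6 genes most like it and 4 most opposite over the arrays, the 3 most like it within groups, and measured list genes. Nearly none of the listed cell cycle and transcription factor genes was the only gene of a feature. For that reason 2 short lists were made from the names measured. A motif list planned for promoters was not run, since no sequence was used here. Plots were drawn with matplotlib 3.10.9.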

Additional observations from a re-analysis of the deposited data

Results flagged for a closer look

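Water array 4 stood apart in TCP15: its normalized intensity was 0.736, while the other 5 water arrays lay between 0.595 and 0.646. Of the 50 groups of 6 values looked at, for TCP15 and the other named genes, this was the only one in which a single array was so far from the rest. Chance alone gives about 1 in every 20 groups, so 1 in 50 is not more than chance would give. Cytokinin array 4 was the second highest of its group (0.538). Without water array 4 the log2 difference of TCP15 was -0.28, against -0.32 with it.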

How the results depend on the processing

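The log2 difference of TCP15 was -0.12 on log2(value + 1), -0.36 to -0.28 leaving out each array in turn, and within the spread of the replicates of -0.32 in the other settings. The replicate block leaves this value as it is. The count of changed features (limma), 48, was 361 with the replicate block, 478 with the position trend removed as well, 85 after median scaling and 76 with array weights. It was 7 without the arrays numbered 1 and 2, 7 without 3 and 4, and 42 without 5 and 6. On set means it was 41 with the set as a block and 0 without a block (99 at an unadjusted p under 0.05). The cause of these differences was not tested. Leaving out each array gave 32 to 43. Rises were 70.8% of the calls, 82.4% with median scaling and 39.1% without any scaling. The median over all features was 0.003, and -0.072 as deposited. Of the 6 genes most like TCP15, 1 was among the 6 highest on deviations from the group means and 4 on the values as deposited. The log2 differences of the dim genes LPA19, CSLA01 and AT3G57630 moved from -0.23, 0.38 and 0.20. With the floor at the 25th percentile they were -0.15, 0.14 and 0.08. As deposited they were -0.34, 0.27 and 0.10. None of 354 values of the 12 tested list genes under other settings passed the threshold (lowest adjusted p = 0.0687, limma); changes of sign among them lay near 0, no farther than 0.086. The replicate block changed no call of these genes. Features near the floor show differences as too small.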
